A study of Mus musculus with 18 samples.

Results

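The lysosomal proton pump and the cathepsins were followed in the histone marks of mouse erythroblasts and immature megakaryocytes. Members were the GENCODE vM21 protein-coding genes whose symbol starts with Atp6v or Atp6ap, or is Cts followed by 1 letter and nothing or digits, without Ctsg. This rule uses names alone and found 43 of 21938 protein-coding genes, of which 26 carry V-ATPase names and 17 are cathepsins. Each mark, H3K4me3 or H3K27ac, was profiled by ChIP-seq in erythroblasts (ERY, 2 libraries) and immature megakaryocytes (iMK, 2 libraries), all sorted from bone marrow of adult C57BL6 mice. All cells were negative for CD4, CD8, IL7Ra, CD11b, Ly6g and CD45R in the sorts. ERY were Ter119+, CD44+ and low in forward scatter, whereas iMK were Ter119-, Sca1-, cKit-, CD41+ and CD61+. The mice carried no allele or treatment named in the labels, and the numbers 1 and 2 only tell the libraries of a group apart.

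V-ATPase is a rotary pump that uses ATP to acidify lysosomes and related compartments. Its V1 sector in the cytosol hydrolyses ATP, its V0 sector in the membrane carries protons, and several subunits have a ubiquitous isoform and others restricted to kidney, osteoclast, brain or testis. Cathepsins are proteases, most of which work in the acid lumen that the pump maintains, and they fall into cysteine (most), aspartic (Ctsd and Ctse) and serine (Ctsa) classes. Maturing erythroid cells degrade organelles through lysosomes, and phagocytes and granulocytes hold large amounts of cathepsins. H3K4me3 is found mainly at promoters of active genes, and H3K27ac at active promoters and enhancers.

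The sequences shown first are promoters of cathepsins with an H3K27ac call in both libraries of 1 cell type alone, read from RefSeq on GRCm38.p6 (250 bases before to 50 after the TSS, in the direction of the gene). Capitals mark an E-box (CACGTG) in Ctsf and Ctsl and the reverse complement of the PU.1 motif GAGGAAGT in Ctsc. Ctsf, at chr19:4854915-4855214 on the plus strand, had the H3K27ac call in both ERY libraries alone. Ctsc, at chr7:88277835-88278134 on the plus strand, and Ctsl, at chr13:64370471-64370770 on the minus strand, had it in both iMK libraries alone. For H3K4me3 the Ctsl promoter was also called in ERY replicate 1, beside both iMK libraries.
Ctsf: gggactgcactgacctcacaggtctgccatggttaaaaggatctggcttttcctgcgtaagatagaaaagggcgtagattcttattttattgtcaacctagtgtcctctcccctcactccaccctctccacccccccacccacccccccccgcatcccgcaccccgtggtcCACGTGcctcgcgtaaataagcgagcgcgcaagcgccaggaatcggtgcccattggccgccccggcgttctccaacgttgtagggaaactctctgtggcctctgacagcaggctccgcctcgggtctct
Ctsc: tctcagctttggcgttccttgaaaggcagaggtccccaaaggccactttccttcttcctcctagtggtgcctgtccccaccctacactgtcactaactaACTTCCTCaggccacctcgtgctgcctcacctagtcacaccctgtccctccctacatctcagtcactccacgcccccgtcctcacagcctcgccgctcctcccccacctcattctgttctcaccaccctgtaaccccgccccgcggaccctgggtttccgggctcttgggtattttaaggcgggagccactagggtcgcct
Ctsl: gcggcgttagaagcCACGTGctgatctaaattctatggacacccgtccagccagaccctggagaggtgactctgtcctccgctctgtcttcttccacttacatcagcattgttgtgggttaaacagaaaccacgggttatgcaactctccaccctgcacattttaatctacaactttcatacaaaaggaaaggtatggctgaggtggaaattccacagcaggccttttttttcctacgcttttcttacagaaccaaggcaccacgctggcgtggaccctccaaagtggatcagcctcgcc

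Promoters of the pump's ubiquitous subunits carried H3K27ac in both cell types, and cathepsin promoters fell into several classes. Promoters spanned 1 kb to either side of every annotated TSS, and any overlap with a peak counted as a call. H3K27ac was called in all 4 libraries at 23 of 43 member promoters, against 36.0% of all protein-coding genes. Of these 23, 17 were V-ATPase genes and 6 were cathepsins (Ctsa, Ctsb, Ctsd, Ctse, Ctso and Ctsz). The 17 were not ubiquitous subunits alone, since they held Atp6v1g2 beside Atp6v1g1, the ubiquitous isoform of subunit G. The windows of Atp6v1h, Atp6v1d, Atp6v1a, Atp6v1g2, Atp6v1b2, Atp6ap1 and Ctsa overlapped that of a TSS of another gene. Calls there cannot be assigned to the member alone. A call in both ERY libraries alone was made at 1 promoter, Ctsf, against 2.17% of all genes. A call in both iMK libraries alone was made at 3 promoters, Ctsc, Ctsh and Ctsl, against 8.56% of all genes. Ctsc encodes dipeptidyl peptidase I, which activates the serine proteases of granules, Ctsh is an aminopeptidase, and Ctsl is an endopeptidase. Ctsk was called in both ERY libraries and in iMK replicate 1, and Ctss in ERY replicate 2 and both iMK libraries. The other 14 members, among them 5 cathepsins, had no H3K27ac promoter call in any library. The shares of members called in 1 cell type alone were near those of all genes.

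**Figure D1:**
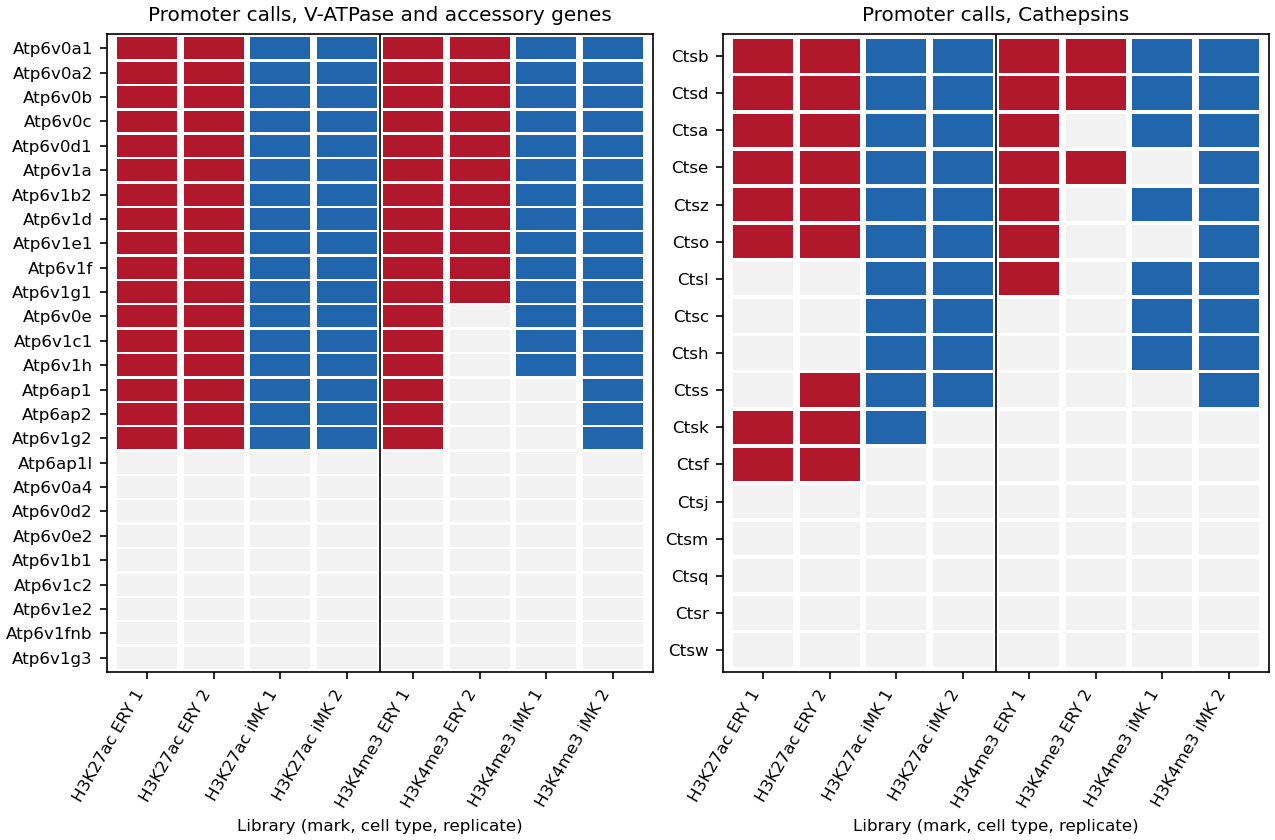
Promoter calls of the 43 members (rows) in the 8 libraries (columns); red squares are calls in ERY libraries, blue squares calls in iMK libraries and grey squares no call. The top 17 V-ATPase genes (left) carry H3K27ac in all 4 libraries, and among the cathepsins (right) Ctsc, Ctsh and Ctsl have it in iMK libraries alone and Ctsf in ERY libraries alone.

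The genes of the pump without a promoter call were mostly isoforms of restricted tissues. No peak of either mark was listed in the loci of 9 members. These were the kidney isoforms Atp6v0a4 and Atp6v1b1, Atp6v1c2, the testis isoform Atp6v1e2, Atp6v0e2, and the cathepsins Ctsj, Ctsm, Ctsq and Ctsr, which lie together on chromosome 13 and belong to the cathepsins of the rodent placenta. Atp6v1b2, the ubiquitous counterpart of Atp6v1b1, and Atp6v1e1, the counterpart of Atp6v1e2, were called in all 4 libraries. An unlisted peak does not show that a mark was absent, since lists hold only what passed the authors' threshold.

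H3K4me3 gave the same outline with fewer calls. It was called in all 4 libraries at 13 member promoters, against 24.6% of all genes, and all 13 were among the 23 with H3K27ac in all 4. Among them were 11 V-ATPase genes, together with Ctsb and Ctsd. Ctsc and Ctsh were called in both iMK libraries alone, against 4.89% of all genes, and no member in both ERY libraries alone, against 0.378%. The lists differed in length, and 24 and 14 member promoters were called in ERY replicates 1 and 2 and 21 and 27 in iMK replicates 1 and 2, where 8461, 6326, 7787 and 11585 of all 21938 promoters were called. Ctse, an aspartic protease known from the red cell membrane, was called in both ERY libraries and iMK replicate 2. Ctsf and Ctsk had no H3K4me3 peak in any library, and both ERY libraries had an H3K27ac call in their promoter windows. The Ctsk calls covered only 0.345 and 0.745 kb of its window in ERY replicates 1 and 2 and 0.345 kb in iMK replicate 1. The H3K27ac region before the gene ended 256 bp from the Ctsk TSS, so no promoter peak over that TSS was listed.

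Coverage of the wider locus was then compared between the cell types. A locus was the gene with 10 kb on each side, and its coverage is the percent of bases inside peaks. For H3K27ac, 34 members had a peak in at least 1 library and were tested with limma. Of these, 10 were higher in ERY, against 22.0% of all genes tested, and 5 were higher in iMK, against 17.2%. Calls in either direction were made for 15 of 34 members, against 39.3% of 14467 genes. Cathepsins accounted for 10 of the 15 calls, with 13 tested, and V-ATPase genes for 5, with 21 tested. The median difference was 8.65 percentage points toward ERY for the cathepsins tested, -0.40 for the V-ATPase genes and 0.60 for all genes tested. After quantile normalization of the 4 libraries the split of calls turned, with 8 members higher in ERY and 10 in iMK, and for the cathepsins it went from 7 and 3 to 3 and 4. With either ERY library left out, 0 members passed as higher in iMK, and without iMK replicate 1 or 2 the members higher in ERY fell to 3 or 4. Over all genes the calls fell alike, from 2490 higher in iMK to 756 and 754 without ERY replicate 1 and 2, and from 3189 higher in ERY to 917 and 927 without iMK replicate 1 and 2. The ERY lists covered 77.0 and 64.9 Mb of the genome and the iMK lists 42.9 and 53.2 Mb, and the part of this difference in the members' values was not tested apart from the normalization above.

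**Figure D2:**
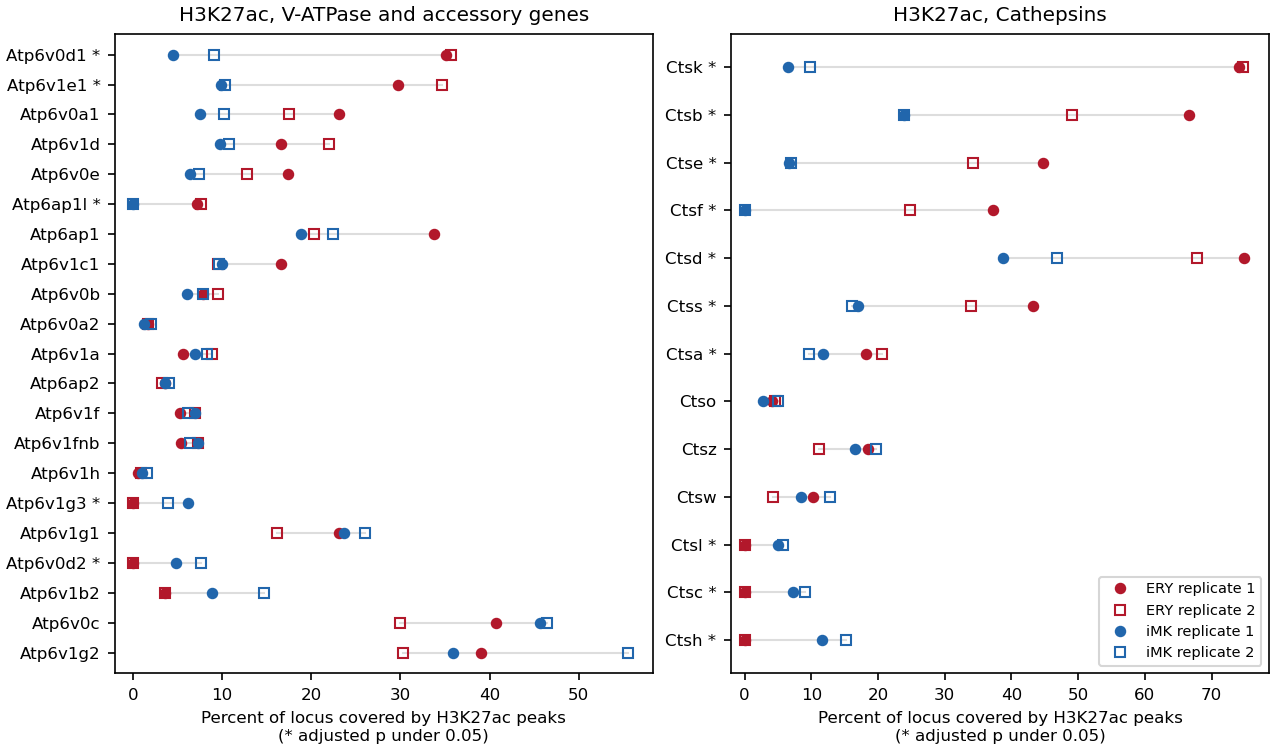
Percent of each locus covered by H3K27ac peaks (x axis) for the 34 members tested (rows), with 1 point per library (red ERY, blue iMK; filled circles replicate 1, open squares replicate 2) and an asterisk for an adjusted p under 0.05. Ctsk lies at 74.1 and 74.8% in ERY against 6.52 and 9.84% in iMK, and Ctsc, Ctsh and Ctsl lie at 0 in both ERY libraries.

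Among the cathepsins, Ctsk had the largest difference. This collagen-degrading cysteine protease is known from osteoclasts, and H3K27ac covered 74.1 and 74.8% of its locus in the 2 ERY libraries and 6.52 and 9.84% in the 2 iMK libraries. The groups were far apart, by 66.2 percentage points (SE 2.55), and limma's adjusted p was 0.0065. Most of the covered bases lay outside the gene, with 16.25 and 16.86 kb in flanks away from any other TSS and 4.56 and 4.76 kb in the gene body beyond the promoter in ERY. The locus also holds the TSS of Arnt, and it shares 2.58 kb with the locus of Ctss, the next gene downstream. Ctss processes antigen-presenting molecules and was covered at 43.2 and 33.9% in ERY and 16.9 and 16.1% in iMK. Its difference of 22.0 points (SE 4.10, limma's adjusted p = 0.0336) stood beside 11.0 and 6.80 kb of covered gene body in ERY and 2.21 and 1.41 kb in iMK. The call was lost with stricter peaks (authors' q under 1e-05), over the gene body alone, without the filter on covered genes, after quantile normalization (8.10 points) and without either iMK library. At the Ctss promoter the order was the other way, with no covered base in ERY replicate 1, 1.42 kb in ERY replicate 2 and 1.79 and 1.59 kb in iMK.

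The aspartic proteases were also covered more widely in ERY. Ctse was covered at 44.8 and 34.3% in ERY and at 6.64 and 6.99% in iMK, a difference of 32.7 points (SE 4.45, limma's adjusted p = 0.0188). A peak at the start of the gene was listed in all 4 libraries. At least 1 other of its 3 annotated TSSs lay in a region listed in both ERY libraries alone (chr1:131652801-131668200). Both ERY libraries listed an H3K4me3 peak there, and no iMK library did. Its promoter windows held 4.19 kb in each ERY library and 1.60 and 2.19 kb in iMK. The gene body beyond them held 18.11 and 12.11 kb in ERY and 2.20 and 1.71 kb in iMK. Ctsd, the main aspartic protease of lysosomes, was covered at 74.8 and 67.9% in ERY and 38.7 and 46.8% in iMK. The groups did not overlap and differed by 28.6 points (SE 4.73, limma's adjusted p = 0.0266), but the difference was -6.64 after quantile normalization, and the call was lost without the filter on covered genes and without any 1 of the 4 libraries. H3K27ac thus covered much of the Ctsd locus in every library.

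Ctsb, Ctsf and Ctsa made up the rest of the cathepsins higher in ERY. Ctsb, a lysosomal endopeptidase, was covered at 66.6 and 49.1% in ERY and at 23.9% in each iMK library, a difference of 33.9 points (SE 7.26, limma's adjusted p = 0.0440). This call was lost under the same alternatives as that of Ctss, with a difference of 10.7 points after quantile normalization. Ctsf was covered at 37.2 and 24.8% in ERY, and no peak of its locus was listed in iMK (31.0 points, SE 5.06, limma's adjusted p = 0.0260). Its ERY peaks lay mostly within 1 kb of its 12 annotated TSSs, with 5.86 and 5.26 kb there. Ctsa, the serine carboxypeptidase that protects beta-galactosidase and neuraminidase, was covered at 18.2 and 20.6% in ERY and at 11.8 and 9.69% in iMK. Its difference of 8.65 points (SE 1.73, limma's adjusted p = 0.0384) was the smallest of the cathepsins that passed in this direction. The Ctsa call was lost without any 1 of the 4 libraries and after quantile normalization (3.41 points), over its gene body alone the difference was -2.45 points and did not pass, and its locus holds TSSs of 3 other genes.

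Among the cathepsins tested, those higher in iMK were those without a listed H3K27ac peak in ERY. They entered the test through their iMK peaks alone. The ERY values had no spread, so the SEs rest on the iMK libraries and on the fit over all genes. Ctsh was covered at 11.6 and 15.3% in the iMK libraries, a difference of 13.4 points (SE 1.61, limma's adjusted p = 0.0151). Ctsc was covered at 7.20 and 9.09% (8.14 points, SE 0.85, limma's adjusted p = 0.0119). Ctsl was covered at 5.07 and 5.71% (5.39 points, SE 0.36, limma's adjusted p = 0.0071). Ctsc and Ctsl held 1 peak per iMK library, at the promoter, and Ctsh held others in the gene body. The Ctsc promoter peak was 3800 and 4800 bp wide and wider than 93.0 and 94.3% of its lists, whereas that of Ctsl was 1600 and 1800 bp wide and wider than 45.3 and 47.1%. For Ctsh a distal region stood 9.95 kb before the gene as well, at the edge of its locus.

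Within the pump the isoforms of subunit d went in opposite directions. Atp6v0d1, the ubiquitous d subunit of the V0 sector, was covered at 35.1 and 35.7% in ERY and at 4.55 and 9.09% in iMK, a difference of 28.6 points (SE 2.35, limma's adjusted p = 0.0087). Its promoter was called in all 4 libraries, and the ERY libraries covered a further 17.64 and 17.25 kb of its gene body against 0.846 and 3.45 kb. Atp6v0d2, the isoform known from osteoclasts and kidney, had no listed peak in ERY and was covered at 4.866 and 7.603% in iMK, all of it inside the gene and none at the promoter. The difference was 6.23 points toward iMK (SE 1.13, limma's adjusted p = 0.0317). Atp6v0d2 entered the test through its iMK peaks alone, and its call was lost without the filter on covered genes.

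Atp6v1e1, Atp6ap1l and Atp6v1g3 passed as well. Atp6v1e1, the ubiquitous E subunit of the stalk, was covered at 29.7 and 34.6% in ERY and at 9.90 and 10.3% in iMK (22.0 points, SE 2.46, limma's adjusted p = 0.0134), and 7.40 and 9 kb of its ERY coverage lay in the flanks, where iMK had 0 and 0.007 kb. Over its gene body alone the difference was 8.07 points and did not pass (limma's adjusted p = 0.0558). Atp6ap1l, a gene related to the accessory protein Atp6ap1, had 2 peaks in each ERY library and none in iMK, at 7.16 and 7.63% of its locus (7.40 points, SE 0.40, limma's adjusted p = 0.0065). All of these lay inside the gene and away from its TSSs. Atp6v1g3, the kidney isoform of subunit G, was covered at 6.16 and 3.92% in iMK and had no listed peak in ERY (5.04 points toward iMK, SE 0.92, limma's adjusted p = 0.0325). This rests on 1 region before the gene, at chr1:138266601-138268800, 4.94 kb from its TSS and with no H3K4me3 peak. The central 200 bases of that region, the nearest of the distal iMK regions to the TSS of its own gene, are given on the plus strand of GRCm38.p6, with no capitals because no motif searched was in them. The whole region of 2200 bp held 1 CACGTG, which is part of its 1 GTCACGTG, 2 TCATGTG and 4 AGATAA, counted on both strands.
Atp6v1g3 region: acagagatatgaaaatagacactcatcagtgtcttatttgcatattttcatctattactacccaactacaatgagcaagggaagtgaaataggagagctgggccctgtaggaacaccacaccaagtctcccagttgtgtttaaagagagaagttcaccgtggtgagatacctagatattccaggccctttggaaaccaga

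**Figure D3:**
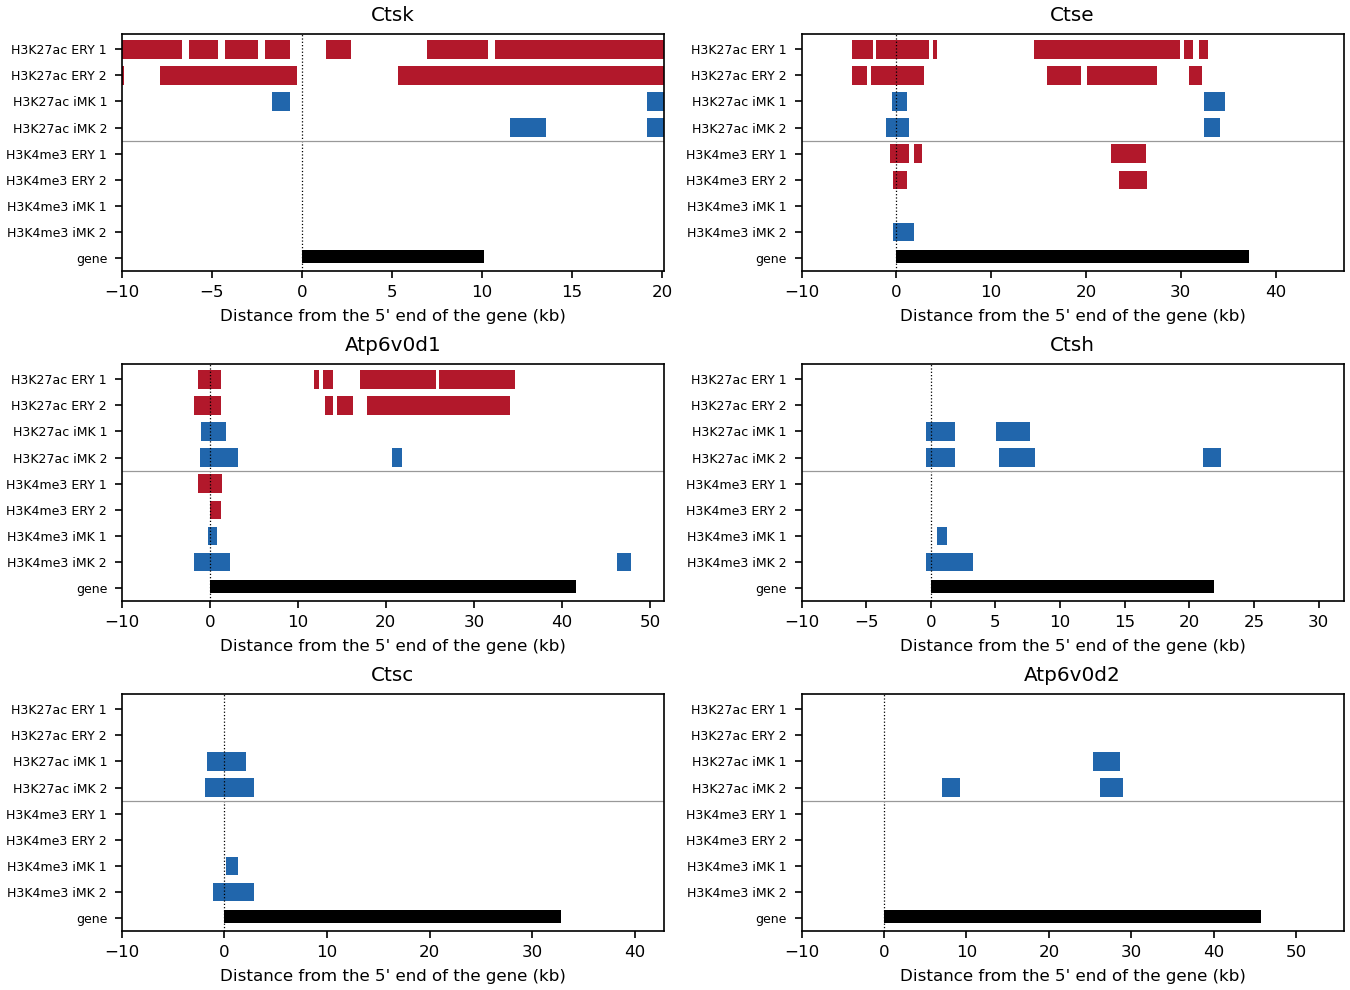
Peaks in 6 member loci by distance from the 5' end of the gene (x axis, kb), with 1 row per mark and library (red ERY, blue iMK) and the gene as a black bar. At Ctsk, Ctse and Atp6v0d1 the ERY libraries hold long H3K27ac peaks in the gene body or flanks, whereas at Ctsh, Ctsc and Atp6v0d2 peaks are listed in iMK libraries alone.

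Among the members that did not pass, those with the highest mean coverage were all pump genes. Atp6v0c, the proteolipid that forms the proton ring, was covered at 40.8 and 29.9% in ERY and at 45.7 and 46.4% in iMK (-10.7 points, SE 4.82, limma's adjusted p = 0.175). Atp6v1g2 was covered at 39.0 and 30.3% against 35.8 and 55.5% (-11.0 points, SE 8.81, limma's adjusted p = 0.377), and part of this lay at promoters of Ddx39b and Nfkbil1. Atp6ap1, the X-linked accessory protein, was covered at 33.7 and 20.3% against 18.8 and 22.4% (6.37 points, SE 5.76, limma's adjusted p = 0.419), and the groups overlapped. Atp6v1g1, the ubiquitous G subunit, was covered at 23.1 and 16.2% against 23.7 and 26.0% (-5.20 points, SE 3.28, limma's adjusted p = 0.292). Atp6v0c, Atp6v1g2 and Atp6v1g1 passed as higher in iMK after quantile normalization, at -37.0, -35.7 and -18.7 points. Atp6v1fnb, which is named for its position beside Atp6v1f and encodes no subunit, shares 19.1 kb of locus with it and repeats its values.

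Summed promoter coverage was close between the cell types, and the sums over gene bodies and flanks were higher in ERY. Summed over the cathepsins, H3K27ac covered 22.2 and 22.9 kb of own promoters in ERY and 20.5 and 21.8 kb in iMK. These sums join members that went both ways, since Ctsf had 5.86 and 5.26 kb of promoter in ERY and 0 in iMK, and Ctsh 3.99 and 4.19 kb, Ctsc 2.05 kb in each and Ctsl 1.6 and 1.8 kb in iMK and 0 in ERY. Gene bodies beyond the promoters held 62.3 and 47.7 kb in ERY and 17 and 20 kb in iMK, and flanks away from other TSSs 54.3 and 46.9 kb against 18.7 and 22.3 kb. For the V-ATPase genes the promoters held 40.6 and 37.6 kb in ERY and 36.8 and 39.6 kb in iMK, and the gene bodies 49.8 and 42.7 kb against 15.3 and 27 kb, with flanks of 27.9 and 28 kb against 16.3 and 20.4 kb. The promoter sums overlapped between the cell types for the V-ATPase genes but not for the cathepsins, and the gene body sums did not overlap in either group. Promoters of other genes in the flanks held 2.73 to 13.5 kb in each sum. The same division by place was not made over all genes. The ERY lists covered more of the genome (77.0 and 64.9 Mb against 42.9 and 53.2 Mb in iMK). Their peaks were also wider on average, at 2992 and 2980 bp against 1873 and 2147 bp. The part of this in the sums was not tested.

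**Figure D4:**
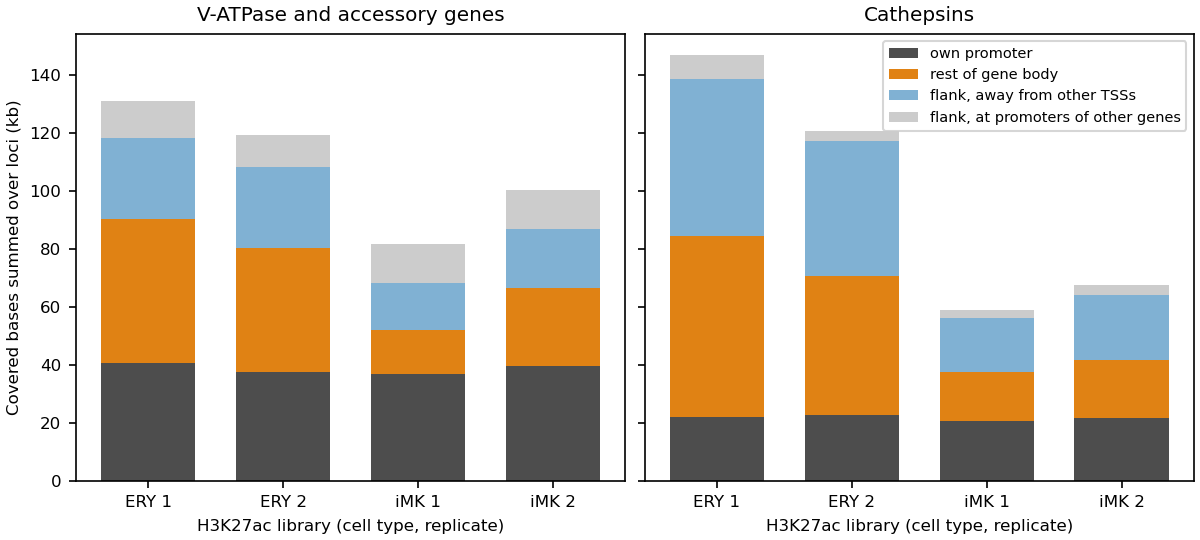
H3K27ac-covered bases summed over the loci of V-ATPase and accessory genes (left) and cathepsins (right) in each library (x axis), in kb (y axis), divided by place. The dark bars of own promoters are of like height in all 4 libraries of a panel, and the orange bars of gene bodies reach 62.3 kb in ERY and 27 kb in iMK.

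At most of the 23 promoters called in all 4 H3K27ac libraries, the iMK peaks had the higher fold, the authors' ratio of ChIP over control. Fold and width were those of the widest peak that touched any TSS window of the gene. Libraries could therefore be compared at different TSSs of a gene. Both iMK values lay above both ERY values at 21 of the 23 members, against 84.5% of all 7897 such promoters, and the reverse at none, against 0.886%. Atp6ap1 was among these 21. The highest fold at any of its windows was 11.8 and 6.51 in ERY and 17.9 and 7.22 in iMK, and these values overlapped. The median fold of a whole list was 3.06 and 2.77 in ERY and 5.79 and 5.65 in iMK, and after division by it both iMK values were higher at 12 of the 23 members and both ERY values at 3, against 41.5 and 14.7% of all such promoters. The median fold over the members was 5.30 and 3.93 in ERY and 13.9 and 12.0 in iMK. Atp6v0b, a V0 proteolipid, had folds of 5.10 and 2.92 in ERY and 38.0 and 19.3 in iMK. Peaks were wider in both ERY libraries at 8 of the 23, against 49.2% of all such promoters, and wider in both iMK libraries at 4, against 13.1%. Among the 8, the ERY widths of Ctse and Atp6v0d1 belonged to peaks at another TSS than the iMK widths. Ctsb peaks were 13800 and 14800 bp wide in ERY and 2200 bp in each iMK library, and Atp6v0c peaks 4200 and 2800 bp against 11800 and 12000 bp. Fold and width therefore did not rank the cell types alike at these promoters.

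Joined peaks in member loci gave 16 H3K27ac regions that were distal, lying over 1 kb away from every TSS, and listed in both ERY libraries alone and 5 in both iMK libraries alone. Over the genome the order was the other way, with 5695 such regions in ERY alone and 6708 in iMK alone. These genome counts also take in regions far from any gene. The same count within the loci of all genes was not made. The locus of Ctsb held 5 of the 16 ERY regions. Ctss and Atp6v0e, an integral V0 subunit, held 3 each. The 5 iMK regions belonged to Atp6v1g3, Atp6v0d2, Atp6v1b2, Atp6v1c1 and Ctsh, which had 1 each. A further 4 distal regions were listed in all 4 libraries and 30 in other sets of libraries. Of the regions at a TSS, 33 were listed in all 4, 4 in each cell type alone and 8 in other sets. No H3K4me3 peak overlapped any of the 21 distal regions of 1 cell type.

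For H3K4me3 coverage no gene of any kind passed the test. Of 29 members tested, 0 passed in either direction, against 0% of 13561 genes. An unadjusted p under 0.05 by limma was reached by 0 of the 29 members and by 482 of the 13561 genes. With so small a share over all genes, 0 of 29 does not show a lack among the members. Values in iMK replicate 2 were the highest of the 4 libraries for 26 of the 29. That list had 13222 peaks, against 6275 to 8841 in the other H3K4me3 lists. Ctsc was covered at 2.27 and 7.58% in iMK and at 0 in both ERY libraries (-4.92 points, SE 2.37, limma's adjusted p = 0.772). Ctsh was covered at 1.91 and 8.58% in iMK and at 0 in both ERY libraries (-5.25 points, SE 2.66, limma's adjusted p = 0.772). Ctse had the opposite order, with 11.2 and 7.69% in ERY and 0 and 3.85% in iMK. In 8 members, among them Atp6ap1, Atp6ap2 and Ctsz, ERY replicate 1 had a peak and ERY replicate 2 had none. Without iMK replicate 2, Ctsc and Ctsh passed as higher in iMK (limma's adjusted p = 0.0467 for each), and without iMK replicate 1, 7 members did. Over all genes, 986 of 11422 passed in this direction without iMK replicate 2 and 4099 of 13474 without iMK replicate 1, so 2 of 28 and 7 of 29 members were no larger shares.

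**Figure D5:**
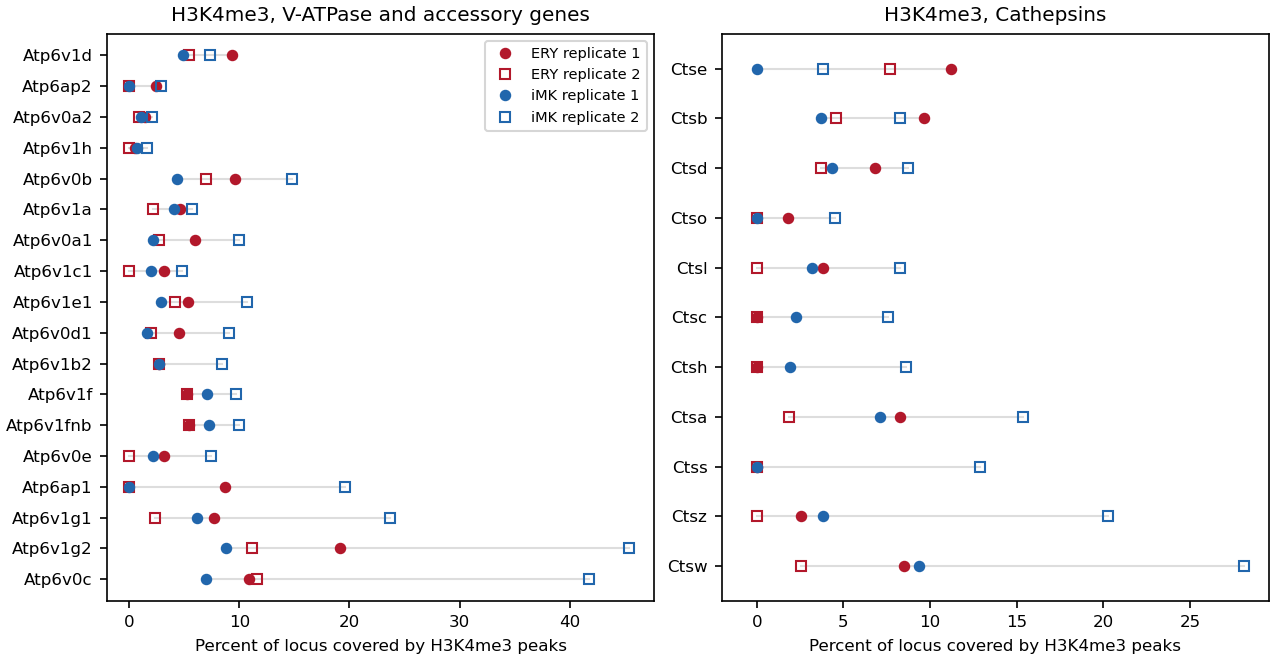
Percent of each locus covered by H3K4me3 peaks (x axis) for the 29 members tested (rows), with 1 point per library (red ERY, blue iMK; filled circles replicate 1, open squares replicate 2). The open blue squares of iMK replicate 2 lie farthest right for 26 members, and ERY and iMK overlap for most.

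Promoter sequence was available for 32 of the 43 members in the RefSeq table (not for Atp6v1h, Ctse, Atp6ap1l, Ctsb, Atp6v1c1, Ctsw, Atp6v0d2, Atp6v1g1, Atp6v0a2, Atp6v1b2 or Ctsh). An E-box (CACGTG) was in 8 of the 32, or 25.0%, against 8.13% of 16522 protein-coding promoters, counted on both strands. The longer GTCACGTG, which holds the E-box and is most of the site bound by TFEB and MITF in lysosomal genes, was in 4, or 12.5%, against 3.0%. These were Ctsa, Ctsd, Atp6v0b and Atp6v0d1, and all 4 promoters carried H3K27ac in all 4 libraries. None of the 11 promoters without any H3K27ac call held an E-box. The share of E-boxes among all promoters without a call, or with a call in all 4 libraries, was not counted. No link between these motifs and the calls can therefore be read from the members. CACGTG also holds a CpG, and the CpG ratios of these promoters differed, as given below. TCATGTG was in 2 members (6.25% against 2.95%), GAGGAAGT in 2 (6.25% against 3.16%), CCGGAAGT, the ETS motif, in 2 (6.25% against 5.63%) and AGATAA, the GATA motif, in 3 (9.38% against 9.54%). The median ratio of observed to expected CpG was 0.78 over the 16 promoters called in all 4 libraries and 0.126 over those 11. The promoters of Ctsd, at chr7:142387778-142388077, and Atp6v0d1, at chr8:105566015-105566314, both on the minus strand of GRCm38.p6, are printed as 1 cathepsin and 1 pump gene of the 4 that hold this site, and they were picked after the motifs had been counted. Capitals mark GTCACGTG or its reverse complement.
Ctsd: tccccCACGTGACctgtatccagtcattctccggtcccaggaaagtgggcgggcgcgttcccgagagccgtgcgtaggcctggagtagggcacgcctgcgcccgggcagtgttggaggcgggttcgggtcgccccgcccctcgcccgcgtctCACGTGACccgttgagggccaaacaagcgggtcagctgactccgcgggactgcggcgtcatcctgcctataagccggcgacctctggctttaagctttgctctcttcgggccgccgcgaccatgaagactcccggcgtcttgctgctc
Atp6v0d1: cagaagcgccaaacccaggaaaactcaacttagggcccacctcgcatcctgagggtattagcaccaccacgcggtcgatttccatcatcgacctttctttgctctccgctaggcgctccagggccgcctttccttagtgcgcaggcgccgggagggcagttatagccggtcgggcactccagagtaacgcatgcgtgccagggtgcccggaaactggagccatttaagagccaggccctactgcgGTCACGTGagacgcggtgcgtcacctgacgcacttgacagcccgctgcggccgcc

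Other genes of the lysosome passed more often toward iMK. Of 79 listed genes, 78 were tested for H3K27ac coverage, 13 were higher in ERY, against 22.0% of all genes tested, and 27 higher in iMK, against 17.2%. After quantile normalization the split was 11 and 36, but it turned to 10 and 6 without ERY replicate 1 and to 15 and 8 without ERY replicate 2. Without iMK replicates 1 and 2 it was 3 and 24 and 3 and 18, and the calls over all genes shifted the same way with each library left out. Hydrolases were higher in iMK in 14 of 34 and in ERY in 4, and of the regulators Tfeb, Tfec and Mitf were higher in iMK and Tfe3 in ERY. Higher in ERY with the largest differences were Slc38a9, an amino acid sensor of the lysosome (76.1 and 68.7% in ERY, 3.47 and 3.88% in iMK), Tmem9, a membrane protein that binds the pump (65.3 and 55.5% against 0 and 1.27%), the hydrolase Gusb (62.2% in each ERY library against 11.8 and 10.6%) and the calcium channel Mcoln1 (66.2 and 49.6% against 10.3 and 11.5%). Higher in iMK were Hexa, which cleaves gangliosides (0 in both ERY libraries against 32.9 and 39.5%), Tfeb, the regulator of lysosomal genes (0 in both against 32.9 and 36.9%), the sialidase Neu1 (2.43 and 0% against 30.0 and 34.8%) and Laptm5, a membrane protein of blood cells (0 in both against 26.7 and 29.5%). Over gene bodies alone the H3K27ac calls of Mcoln1 and Neu1 were lost, and those of Slc38a9, Tmem9, Gusb, Hexa, Tfeb and Laptm5 held. For H3K4me3, 0 of 76 genes passed by limma and 8 had an unadjusted p under 0.05, against 482 of 13561 over all genes. Tcirg1, the a3 subunit of the pump whose symbol the rule does not match, was covered at 16.7 and 7.72% in ERY and at 21.9 and 32.2% in iMK, and it is named outside the rule for named genes.

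Markers of the sorted and of other cells moved with these groups. All 12 erythroid markers were higher in ERY for H3K27ac. Of 12 megakaryocyte markers, 4 were higher in ERY and 1 in iMK, Pf4 had no listed peak, and Itga2b, which encodes CD41, had none in iMK. Itgb3, which encodes CD61, was covered at 5.82 and 8.73% in iMK and at 0 in ERY. The coverage summed over 14 macrophage and monocyte markers was 41.1 and 57.3 percentage points in ERY and 176 and 214 in iMK, with 5 of 10 tested higher in iMK and C1qa, C1qb, C1qc and Vcam1 at 0 in every library. Over 12 neutrophil markers the sum was 46.5 and 20.1 in ERY and 229 and 480.1 in iMK, with 3 of 12 higher in iMK. The 6 osteoclast markers summed to 72.9 and 55.8 in ERY and 38.0 and 46.2 in iMK, with Calcr and Dcstamp at 0. Acp5 alone gave 63.05 and 52.01 of this in ERY and 20.27 and 23.72 in iMK. Of 4 osteoclast markers tested, Acp5 was higher in ERY, and Ocstamp and Nfatc1 were higher in iMK. The 4 mast cell and basophil markers were at 0. Among the 5 lymphoid markers 1 was higher in iMK. The part of these markers in the coverage of Ctsc, Ctsh, Ctsl, Atp6v0d2 and Atp6v1g3 in iMK was not tested, and in sorted populations fewer marked cells and less of a mark per cell cannot be told apart.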

How the data were processed

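The deposited peak lists, 1 per ChIP library and called by the authors separately in each, give for every peak a fold (the ratio of ChIP over control) and a p-value and q-value, all q-values being under 0.01. Bowtie 1.0.0 and SICER 1.1 are named in the notes on processing that came with the submission, with the build mm10, whereas the study's methods name Bowtie with MACS for its ChIP-seq in general. Peak edges fall on multiples of 200 bp, so widths move in such steps, and how control was scaled to ChIP for the fold is not given in the sources used here. Antibodies were against H3K4me3 and H3K27ac, and 10 input libraries were not used. The lists hold no read counts, so depth is unknown, and they differ in length (6275 to 13222 peaks for H3K4me3, 21768 to 25750 for H3K27ac). Locus coverage was tested per mark with limma 3.58.1 (R 4.3.3; trend, no covariates, two-sided) over genes covered in at least 1 of 4 libraries; p-values were adjusted after Benjamini-Hochberg and called under 0.05; the script was tested on simulated data. Promoter calls were counted without a test. An exact permutation test of 2 libraries against 2 cannot go below 0.333, so none was run.

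The study's methods describe replicates as separate batches of mice or separate sorter aliquots of one batch, without saying which is which here, so p-values measure only the spread between these libraries. All members called higher in iMK, and Ctsf and Atp6ap1l among those higher in ERY, had no listed H3K27ac peak in the other cell type. They entered the test through 1 cell type alone, and their SEs rest on its spread and on the fit over all genes. Loci of neighbouring genes overlap. Genes with a test were named where coverage or a promoter call separated the cell types, together with the 4 widest others and up to 4 other lysosome genes per direction. Members and lists were chosen with earlier results of these data known. Coordinates are counted from 1 on GRCm38 (mm10).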

Additional observations from a re-analysis of the deposited data

How the results depend on the processing

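No paired analysis was possible because the labels number no replicates. Over stricter peaks (authors' q under 1e-05), lists of equal length, gene bodies alone, no filter, quantile normalization and each library left out, the calls of Ctsk and Atp6ap1l held in all 9 alternatives. Those of Ctse, Ctsc, Ctsh, Ctsl and Atp6v0d1 were lost only when 1 library was left out, where the lone library is assumed to vary like the other group. Atp6ap1l had no listed iMK peak, so its call rests on ERY peaks alone in every alternative. Calls were lost without either iMK library for Ctse, Ctsf and Atp6v1e1, and without either ERY library for Ctsc, Ctsh, Ctsl, Atp6v0d1, Atp6v0d2 and Atp6v1g3. Members with H3K27ac higher in ERY (10) numbered 6 over gene bodies, 5 without the filter and 3 to 9 with a library left out, and those higher in iMK (5) numbered 8 with lists of equal length, 3 without the filter, 10 after quantile normalization and 0 to 7 with a library left out. Leaving out either ERY library gave 0 higher in iMK, and leaving out iMK replicate 1 or 2 gave 3 or 4 higher in ERY. For H3K4me3, 1 member (Ctse) was higher in ERY after quantile normalization, and 0 to 7 were higher in iMK with a library left out, the 7 without iMK replicate 1 and 2 without iMK replicate 2. Promoters with H3K27ac in ERY alone (1) numbered 1 to 2 with a library left out, the 2 without iMK replicate 1, and H3K4me3 in ERY alone (0) numbered 0 to 1, the 1 without iMK replicate 2. H3K4me3 promoters in iMK alone (2) numbered 2 to 8, the 8 without ERY replicate 1. Of the 34 members tested for H3K27ac, differences reversed for 4 over gene bodies, 5 after quantile normalization and 5, 1, 2 and 1 without ERY replicate 1 and 2 and iMK replicate 1 and 2. For H3K4me3, 9 of 29 reversed after quantile normalization, 11 of 28 without iMK replicate 2 and 1 or 2 under 5 others. Among the genes named by the rule, reversals were those of Ctsa (-2.45) and Atp6v1g1 (20.1) over gene bodies, of Ctsd (-6.64) and Atp6ap1 (-6.80) after quantile normalization, and of Atp6ap1 (-0.36) without ERY replicate 1, within -0.36 to 13.1 over the 4 libraries left out; the cause was not tested. Without the filter Ctsa, Ctsb, Ctsd, Ctsf, Ctss, Atp6v0d2 and Atp6v1g3 lost their calls. Without read depth, a promoter missing from 1 list cannot be told from one below that list's threshold.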
